A study of Mus musculus with 8 samples.

Results

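The 10 genes described here encode chaperones and folding factors of the endoplasmic reticulum (ER): Hspa5, Hsp90b1, Calr, Canx, Pdia4, Pdia6, Sdf2l1, Dnajb11, Manf and Creld2. They were chosen by name, with earlier results of these data known. In the count table they were found through their Ensembl gene IDs in GENCODE M21 (mouse build GRCm38). All 10 of 10 had an ID, out of 21859 IDs in the table, and all 10 passed the filter on low counts, which 10729 genes passed. The data are RNA sequencing counts of PER-M60, labelled as leukaemia cells, a mouse cell line, in 2 groups that differ in the medium only. Control medium was used for 4 cultures, and medium conditioned by osteoclasts, the cells that resorb bone, for the other 4. No genotype, agent or culture time is given beyond that, and all cultures come from the 1 line, so the p-values measure the spread between these cultures, which may be technical.

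Proteins that enter the ER are folded there before they move on to the cell surface or are secreted. Hspa5 (BiP, GRP78) is the Hsp70 of the ER, known both as a glucose-regulated protein and as a protein that binds immunoglobulin heavy chains in B-lineage cells. Hsp90b1 (GRP94) is the ER Hsp90, calreticulin (Calr) and calnexin (Canx) hold glycoproteins, and the protein disulfide isomerases form and correct disulfide bonds. When unfolded proteins build up, the unfolded protein response raises many of these genes through ATF6 and XBP1, which act at promoter motifs called ER stress response elements (ERSE), together with the CCAAT-binding factor NF-Y.

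Promoter sequences are given first because most members hold this motif, which was not used to choose them, although these genes are known targets of the response. RefSeq promoter windows on GRCm38.p6, from 250 bases before to 50 bases after a start site, were matched by symbol for 9 of the 10 members, Manf being the one not matched. ERSE was searched on both strands as CCAAT, any 9 bases, then CCACG, in exact matches only, so departures from this pattern were not counted. It was found in 6 of the 9 members' windows, against 39 of 32851 windows of all genes (0.119%). Calr, Canx, Creld2, Hspa5 and Pdia6 held 1 copy each and Hsp90b1 held 2. A match is a description of the letters and not evidence of binding. The elements, written 5′ to 3′ on the strand of the motif with its fixed bases in capitals, differ in their inner 9 bases:

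Hspa5 ERSE: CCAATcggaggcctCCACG

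Hsp90b1 ERSE, distal: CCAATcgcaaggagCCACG

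Hsp90b1 ERSE, proximal: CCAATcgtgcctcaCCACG

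Calr ERSE: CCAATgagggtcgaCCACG

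Canx ERSE: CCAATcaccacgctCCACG

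Pdia6 ERSE: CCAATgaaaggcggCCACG

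Creld2 ERSE: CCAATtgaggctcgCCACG

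Dnajb11 ERSE-II: ATTGGcCCACG

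The base of the element farthest upstream lay 65 bases before the RefSeq start site in Hspa5, 212 and 107 bases before it in Hsp90b1, 162 in Calr, 145 in Canx, 98 in Pdia6 and 126 in Creld2. The motif ran on the gene's strand in Hspa5, Canx, Pdia6 and the distal Hsp90b1 copy, and on the opposite strand in Calr, Creld2 and the proximal Hsp90b1 copy. RefSeq and GENCODE M21 differ in where 5 of the 9 genes start. The GENCODE gene starts 120 bases upstream of the RefSeq start in Hspa5, 65 in Hsp90b1, 44 in Pdia6 and 3 in Calr, and downstream of it in Pdia4. The Hspa5 element therefore lies inside the GENCODE gene, while the ERSE copies of Hsp90b1, Calr, Canx, Pdia6 and Creld2 lie outside it. ERSE-II, a shorter relative (ATTGG, any 1 base, CCACG), was in the window of Dnajb11, beginning 8 bases after the start, and in 0.0365% of all windows. The windows of Pdia4 and Sdf2l1 held neither element, only the 5-base part CCACG, which all 9 members and 32.8% of all windows hold and which overlaps both elements by construction. Neither TGACGTGG (UPRE, the XBP1 motif, in 0.676% of all windows) nor TGATGCAA (a C/EBP-ATF core, in 0.895%) was found in a member's window.

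**Figure D1:**
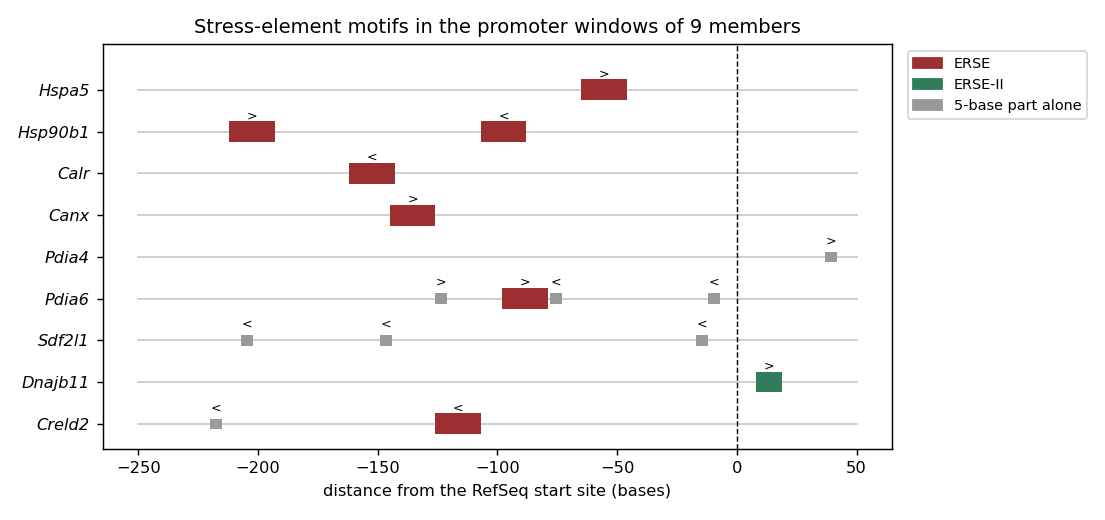
Motif matches in the promoter windows of 9 members, by distance in bases from the RefSeq start site (dashed line). Red bars are ERSE, the green bar is ERSE-II, grey bars are the 5-base part outside them, and arrowheads give the strand; every ERSE copy lies before the RefSeq start, the farthest beginning 212 and the nearest 65 bases from it.

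The upstream part of the window, ended where the GENCODE gene begins, is printed for 4 members, the Hsp70 and Hsp90 of the ER and both lectin chaperones, because these are the 4 most abundant members in CPM in both media and all hold ERSE. Coordinates are on GRCm38.p6, each sequence runs on the gene's strand (plus for Hspa5, minus for Hsp90b1, Calr and Canx), and capitals mark the fixed bases of ERSE, which for Hspa5 lies beyond the stretch printed here.

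Hspa5, chr2:34771840-34771969: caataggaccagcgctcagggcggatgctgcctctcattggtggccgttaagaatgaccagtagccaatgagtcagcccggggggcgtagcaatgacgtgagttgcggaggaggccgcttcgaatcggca

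Hsp90b1, chr10:86705510-86705694: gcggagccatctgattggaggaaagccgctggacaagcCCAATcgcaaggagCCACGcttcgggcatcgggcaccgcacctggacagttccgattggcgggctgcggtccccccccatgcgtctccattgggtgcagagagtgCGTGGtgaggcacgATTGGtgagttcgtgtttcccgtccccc

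Calr, chr8:84846935-84847181: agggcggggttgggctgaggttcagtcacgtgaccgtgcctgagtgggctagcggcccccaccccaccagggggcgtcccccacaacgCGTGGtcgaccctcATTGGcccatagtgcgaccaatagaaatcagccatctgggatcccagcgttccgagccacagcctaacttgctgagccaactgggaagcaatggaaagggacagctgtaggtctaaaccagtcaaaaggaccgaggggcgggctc

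Canx, chr11:50325674-50325923: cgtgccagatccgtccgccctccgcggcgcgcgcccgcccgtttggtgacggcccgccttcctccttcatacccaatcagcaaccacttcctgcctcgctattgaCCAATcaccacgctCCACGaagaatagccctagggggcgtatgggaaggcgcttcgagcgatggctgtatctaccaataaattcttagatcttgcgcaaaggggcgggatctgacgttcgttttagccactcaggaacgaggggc

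All 10 members were lower in osteoclast-conditioned medium, with log2 fold changes from -0.08 to -0.53 (edgeR's quasi-likelihood test with Benjamini-Hochberg adjustment over all tested genes). Over the whole table, 14.8% of tested genes were called lower and 15.7% higher at an adjusted p under 0.05, and 0 of the 10 members were higher at any p, since all 10 changes were negative. The members' median log2 fold change was -0.37, against -0.01 for all tested genes. In 9 of the 10 the lowest control culture lay above the highest conditioned culture, a pattern seen in 12.9% of all tested genes. With scaling by total counts only, 40.7% of all called genes were higher, against 51.6% with the main scaling, and the same 10 of 10 members were called lower. The summed level of the members was 5101, 5247, 5269 and 5070 normalised CPM (counts relative to the scaled library total, on the usual CPM scale) in control replicates 1 to 4. In conditioned replicates 1 to 4 it was 4241, 4266, 4147 and 4050.

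The means of that sum were 5172 ± 101 and 4176 ± 98.5 normalised CPM (SD, n = 4 each), a ratio of 0.807. Members took 0.521% of all counts in control medium and 0.414% in conditioned medium. Conditioned replicate 4 was the lowest conditioned culture for 7 of the 10 members, and without it the difference in the sum was -949 CPM, against -996 CPM with all cultures. In bulk cultures, fewer cells that express a gene and less RNA per cell cannot be told apart.

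**Figure D2:**
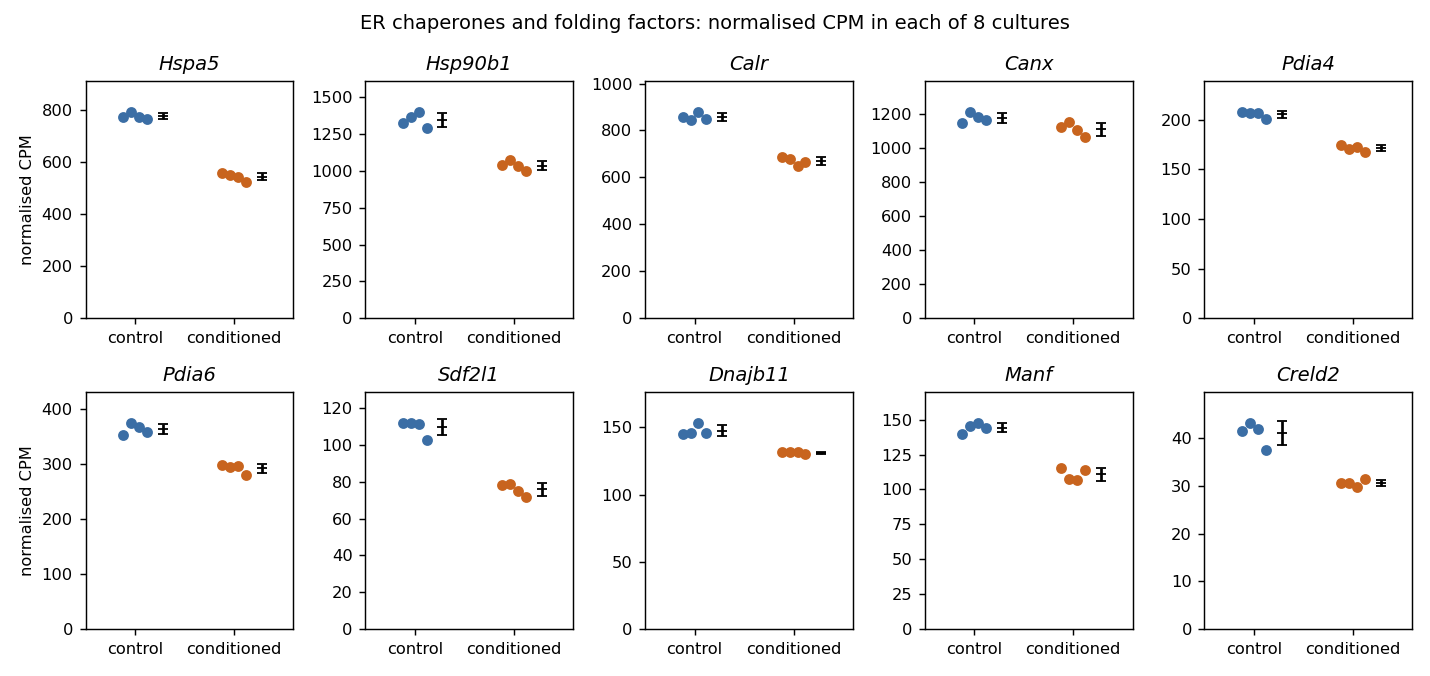
Normalised CPM of each member (vertical axes, starting at 0) in the 4 control cultures (blue) and the 4 conditioned cultures (orange), with the mean and SD in black. The groups overlap in Canx only.

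Total counts ran from 15391754 to 21637966 per culture, so every member rested on at least 511 counts in each culture, the lowest being a Creld2 count. Of the 10 markers of B-lineage cells, all 10 were measured, with a summed level of 4532 to 4563 normalised CPM in control and 4775 to 4808 in conditioned medium, and 6 were called higher and 2 lower, against 15.7% and 14.8% of all tested genes. Of the 13 osteoclast markers, 9 fell below the filter, among them Ctsk, Calcr and Mmp9, and Dcstamp and Ocstamp had 0 counts in every culture. The summed level of the osteoclast list was 347 to 360 normalised CPM in control and 337 to 350 in conditioned medium, from Car2 (control mean 223, conditioned mean 203), Nfatc1 (95.6 and 106), Acp5 (22.9 and 24.4) and Itgb3 (12.9 and 10.7) for the most part. The labels name no lineage beyond leukaemia cells. The part of these marker levels in the members' changes was not tested.

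Hspa5 fell by 0.51 on the log2 scale. It binds exposed hydrophobic stretches of unfolded chains and also holds the stress sensors of the ER membrane inactive. The control cultures had 774, 794, 776 and 767 normalised CPM in replicates 1 to 4, and the conditioned cultures had 559, 549, 545 and 525. The groups are far apart: the gap between them is several times the spread within either. The means were 778 ± 11.3 and 545 ± 14.1 (SD, n = 4 each), with SE 0.03 and an edgeR adjusted p of 1.87e-15. Its p-value ranked 9 among the 10729 tested genes. The gene lies on chromosome 2, 34771970 to 34777547 (GRCm38, GENCODE M21), and shares no exon base with another annotated gene.

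In the same build, Hsp90b1 lies on chromosome 10 (86690209 to 86705509), Calr on chromosome 8 (84841850 to 84846934), Canx on chromosome 11 (50293961 to 50325673), Pdia4 on chromosome 6 (47796141 to 47813430) and Pdia6 on chromosome 12 (17266545 to 17284770). Sdf2l1 (17130138 to 17132383) and Dnajb11 (22857845 to 22879634) both lie on chromosome 16, Manf on chromosome 9 (106838312 to 106891979) and Creld2 on chromosome 15 (88819646 to 88826683). All 10 are annotated as protein-coding.

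The helpers of Hspa5 among the members fell by unequal amounts. Sdf2l1, a small protein that works in complex with Hspa5 and its J-domain partners, had 112, 112, 111 and 103 normalised CPM in control and 78.1, 79, 74.8 and 71.5 in conditioned medium. Its log2 fold change was -0.53 (SE 0.04, edgeR adjusted p = 3.28e-12). Control replicate 4 was the lowest control culture, and still lay above every conditioned culture. Dnajb11 (ERdj3), a J-domain co-chaperone that hands unfolded clients to Hspa5, had 145, 146, 153 and 146 in control and 131, 131, 132 and 130.2 in conditioned medium. Its change was -0.17 (SE 0.03, edgeR adjusted p = 4.97e-05). The SD of the 4 conditioned values of Dnajb11 was 0.623 CPM, and the groups did not overlap.

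Hsp90b1, the ER Hsp90 that completes the folding of Toll-like receptors and integrins, was the most abundant member in control medium, both in CPM and per length. In conditioned medium it stayed first per length, and Canx had the higher CPM (1113 against 1036). It had 1324, 1367, 1402 and 1295 normalised CPM in control replicates 1 to 4. In conditioned replicates 1 to 4 it had 1041, 1072, 1033 and 998, all below the control range. The log2 fold change was -0.38 (SE 0.03, edgeR adjusted p = 1.02e-11). Lengths here count all annotated exon bases of a gene, which may exceed those of the transcripts expressed, so close places in the order are uncertain. Per kilobase of exon the control means ran in the order Hsp90b1 (334 CPM per kilobase), Calr (298), Canx (251), Hspa5 (184), Sdf2l1 (98.9), Pdia6 (97.1), Pdia4 (85.6), Dnajb11 (45.6), Manf (40.9) and Creld2 (30.1). On that per-length scale the conditioned means were 257 for Hsp90b1, 233 for Calr, 237 for Canx and 129 for Hspa5, so Calr and Canx, with 298 and 251 in control medium, lay closer to each other in conditioned medium.

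The lectin chaperones, which hold glycoproteins in the same folding cycle, fell to different degrees. Calr, the soluble one, which also stores calcium, had 856, 844, 879 and 850.3 normalised CPM in control and 687, 678, 649.6 and 667 in conditioned medium, without overlap. Its log2 fold change was -0.35 (SE 0.03, edgeR adjusted p = 7.60e-12). Canx, the membrane-bound one, had 1147, 1214, 1185 and 1168 in control and 1126, 1154, 1108 and 1064 in conditioned medium, and conditioned replicate 2 was above control replicate 1. Its change was -0.08 (SE 0.03, edgeR adjusted p = 0.0211). The call on Canx was lost without conditioned replicate 3 (adjusted p = 0.0646) or conditioned replicate 4 (0.0823). It was also lost at an adjusted p under 0.01 and in a test against a change of 1.2-fold.

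Both disulfide isomerases among the members fell. Pdia6 (P5), which also bears on how long the stress sensor IRE1 stays active, had 353, 375, 367 and 359 normalised CPM in control and 298, 294, 297 and 280.4 in conditioned medium. Its log2 fold change was -0.31 (SE 0.03, edgeR adjusted p = 4.08e-10). Pdia4 (ERp72) had 208, 206, 206 and 201 and 175, 171, 173 and 168 in the respective media, a change of -0.26 (SE 0.03, edgeR adjusted p = 1.53e-08). Neither gene had overlapping groups. Atp6v1c2 on the opposite strand shares 1.34% of the exon bases of Pdia6.

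Manf and Creld2 encode soluble ER proteins that are also secreted under stress. Manf, a survival factor that binds Hspa5, had 140.1, 145, 148 and 144 normalised CPM in control and 116, 107, 107 and 114 in conditioned medium, which is -0.38 on the log2 scale (SE 0.03, edgeR adjusted p = 2.38e-10). Creld2, the least abundant member, had 41.5, 43.3, 42.1 and 37.6 and 30.6, 30.6, 29.7 and 31.4, a change of -0.43 (SE 0.05, edgeR adjusted p = 6.90e-08). All conditioned cultures were below all control cultures in both genes. Dcaf1 on the opposite strand and Rbm15b on the same strand share 4.54% of the exon bases of Manf, and the use of strand in counting is not given in the sources used here, so a part of its reads may belong to them.

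The members did not all fall by the same amount. For each culture the log2 ratio of Hspa5 counts to those of each other member was compared between media by a two-sided exact permutation test (4 against 4, smallest possible p = 0.0286), which does not depend on scaling between libraries. In 7 of 9 pairs Hspa5 fell more than its partner, with no overlap of the cultures and an exact p of 0.0286 (adjusted p = 0.0367 over the 9 pairs). The extra fall was largest against Canx, where the log2 ratio went from -0.60 ± 0.02 to -1.03 ± 0.03 (SD, n = 4 each), a difference of -0.43. The differences were -0.34 against Dnajb11, -0.25 against Pdia4, -0.20 against Pdia6, -0.16 against Calr, -0.14 against Hsp90b1 and -0.13 against Manf.

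Sdf2l1 and Creld2 were the other pairs. The ratio of Hspa5 to Sdf2l1 was 2.83 ± 0.05 in control and 2.84 ± 0.04 in conditioned medium, a difference within the spread of the cultures (exact p = 0.600, adjusted 0.600). The ratio to Creld2 differed by -0.09 with overlapping cultures (exact p = 0.0571, adjusted 0.0643), which became an adjusted p of 0.0321 when 0.5 counts were added to each count, and 0.0367 without control replicate 2. Leaving out 1 culture took the adjusted exact p of the Hsp90b1 pair to 0.0735 without conditioned replicate 2 or 4 and 0.0643 without conditioned replicate 3. The Manf pair went to 0.0964 without control replicate 1 or 2 and 0.0735 without control replicate 4.

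**Figure D3:**
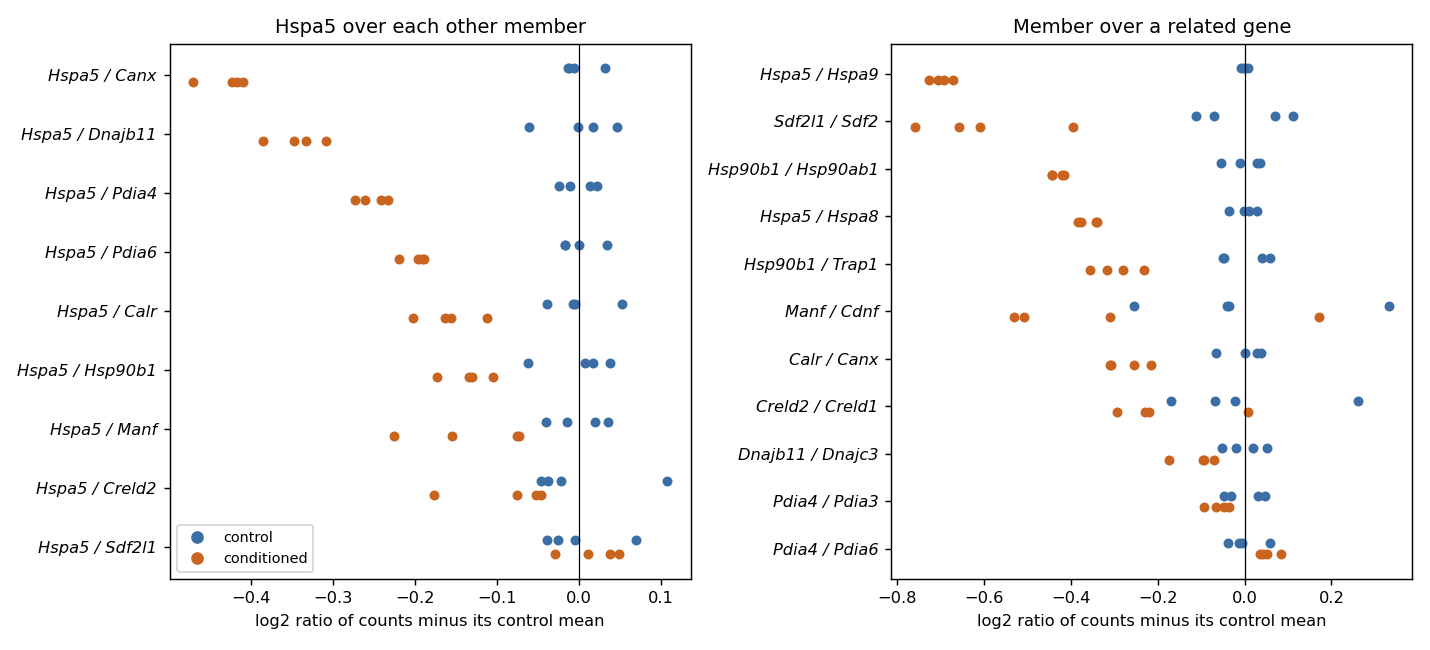
Log2 ratio of counts in each culture minus the control mean of that ratio (horizontal axes), for Hspa5 over each other member (left) and for members over related genes (right), with control cultures in blue and conditioned cultures in orange. The Hspa5 to Canx ratio moved by -0.43 and the Hspa5 to Sdf2l1 ratio by 0.02.

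Members were next set beside relatives in other compartments, by the same exact test over 11 pairs of related genes, of which 7 had an exact p of 0.0286 (adjusted p = 0.0449). Hspa8, the constitutive cytosolic Hsp70, fell by 0.15 on the log2 scale (edgeR adjusted p = 3.71e-05), and Hspa9, the mitochondrial Hsp70, rose by 0.19 (edgeR adjusted p = 7.66e-07). The log2 ratio of Hspa5 to Hspa8 moved by -0.36 and that to Hspa9 by -0.70, from -0.04 ± 0.01 to -0.74 ± 0.02 (SD, n = 4 each). The counts of Hspa5 and Hspa9 were near equal in control medium, and those of Hspa5 were lower in every conditioned culture. Hsp90ab1, the constitutive cytosolic Hsp90, had a log2 fold change of 0.05 (edgeR adjusted p = 0.106, 0.0326 without conditioned replicate 4 and 0.0474 by limma-voom), and the ratio of Hsp90b1 to it moved by -0.43. The ratio of Hsp90b1 to Trap1, the mitochondrial Hsp90, moved by -0.30.

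Within the ER, the ratio of Sdf2l1 to its close relative Sdf2 went from 2.42 ± 0.11 to 1.81 ± 0.15, Sdf2 itself having a log2 fold change of 0.08 (edgeR adjusted p = 0.375). Exons of Sdf2 are shared for 16.0% of their bases with Supt6. The ratio of Calr to Canx moved by -0.27 and that of Dnajb11 to Dnajc3 (P58IPK, another J-domain co-chaperone) by -0.11. The other 4 pairs overlapped between media. Pdia4 differed from Pdia6 by 0.05 (exact p = 0.114) and from Pdia3 by -0.06 (exact p = 0.0571); adjusted, these were 0.140 and 0.0786, and 0.0393 without control replicate 1 and without control replicate 2, respectively. Creld2 differed from Creld1 by -0.18 and Manf from Cdnf by -0.29 (exact p = 0.171 each). Creld1 and Cdnf are scarce here, with control means of 7.38 and 0.721 normalised CPM and at least 107 and 9 counts per culture. Without any one of conditioned replicates 1 to 3, 0 of the 11 pairs passed an adjusted p of 0.05, with adjusted p of 0.0524 for the first 6 of the 7 pairs and 0.0698 to 0.0898 for Dnajb11 and Dnajc3. The 6 pairs were still at the smallest exact p that 4 against 3 cultures allow (0.0286), which gives 0.0524 when 6 of 11 pairs reach it, so this loss says nothing on how stable those ratios are. Over the fits that left out 1 culture, the difference in the Hspa5 to Hspa9 ratio ran from -0.71 to -0.69.

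In 5 lists of other ER folding genes, 54 of 67 matched genes were tested, and 9 were called lower and 10 higher. Both counts are near the shares over the whole table (14.8% and 15.7%), and the median log2 fold change was -0.02. The oxidoreductases had 4 called lower and 1 higher of 18 tested, against 14.8% and 15.7%. Pdia3 (ERp57), the partner of calnexin and calreticulin, had 733 against 637 normalised CPM and fell by 0.20 on the log2 scale (edgeR adjusted p = 7.00e-07). Txndc5 fell by 0.20 (6.05e-05) and Ero1l, the oxidase that recharges the isomerases, by 0.17 (0.00105), P4hb, the classical isomerase, fell by 0.12 (0.00582), and Txndc16 rose by 0.17 (0.00177); without control replicate 2, 2 were called higher. In the Hsp70 cycle, 1 gene was called lower and 4 higher of 10 tested, against 14.8% and 15.7%. Hyou1 (GRP170), a nucleotide exchange factor of Hspa5, fell by 0.29 (edgeR adjusted p = 5.88e-10), whereas the J-domain genes Dnajb14 and Dnajb9 rose by 0.29 (0.00402) and 0.23 (0.0125), as did Sil1, another exchange factor, by 0.18 (0.00384) and Dnajb12 by 0.16 (4.89e-04). Whether each of these J-domain proteins works with Hspa5 was not looked at. Genes of the Hsp70 cycle list called lower numbered 2 without control replicate 1 or 3 or with no filter on low counts, and 3 with scaling by total counts.

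The glycoprotein cycle had 2 called lower and 2 higher of 11 tested, also near the shares over the whole table (14.8% and 15.7%). Clgn, a relative of calnexin, rose by 0.16 (edgeR adjusted p = 4.13e-05), and Uggt1, which tags unfolded glycoproteins for another round with calnexin, rose by 0.12 (0.00136), while the glucosidase gene Mogs fell by 0.14 (0.00130) and the cargo receptor gene Lman1 by 0.12 (0.00457). Of 5 tested prolyl isomerases 2 were called lower (14.8% over the whole table), Fkbp2 (-0.24, edgeR adjusted p = 0.0214) and the scarce Fkbp11 (-0.41, 0.0393). The call on Fkbp2 was lost without control replicate 1, 3 or 4 or conditioned replicate 2 or 3 (adjusted p from 0.0513 to 0.0723). The list had 0 called lower without control replicate 4 or conditioned replicate 2 or 3, and 1 without control replicate 1, 2 or 3 or conditioned replicate 4, by DESeq2 or by limma-voom. Among 10 tested genes of other folding and retrieval, 3 were called higher and 0 lower, against 15.7% and 14.8%: Cnpy2 (0.22, edgeR adjusted p = 0.00302), Lrpap1 (0.20, 2.35e-04) and Mesd (0.11, 0.0207). DESeq2 also called 0 of this list lower, edgeR had 1 lower (Creld1) at an unadjusted p under 0.05, and 2 were called lower without control replicate 2. Mesd lost its call without control replicate 1 or conditioned replicate 1 or 2 (adjusted p from 0.0613 to 0.0981) and with scaling by total counts (0.0551). The receptors Kdelr1 and Kdelr2, which return KDEL-tailed proteins such as Hspa5 to the ER, had log2 fold changes of 0.04 and -0.08, with edgeR adjusted p of 0.533 and 0.292 (both picked with their values known).

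Genes of ER import and N-glycosylation, the step before folding, had 5 called lower and 1 higher of 30 tested and a median of -0.04, and with scaling by total counts 8 were called lower. Of all tested genes, 14.8% were called lower and 15.7% higher. Ssr4, of the translocon-associated complex, fell by 0.19 (edgeR adjusted p = 0.00504) and Ostc, of the oligosaccharyl transferase, by 0.15 (0.00779), while the signal peptidase subunit Spcs2 rose by 0.13 (3.47e-04). The other 3 that fell, Rpn1, Ssr1 and Spcs3, lay between -0.12 (Ssr1) and -0.10 (Spcs3). Without control replicate 2, 4 of the 30 were called higher, and 2 were without conditioned replicate 4 or with a mean of at least 50 counts. Cytosolic chaperones had 8 called lower and 1 higher of 18 tested (median -0.06), against the same 14.8% and 15.7%, led by Hsph1 (-0.34, edgeR adjusted p = 1.64e-10), Dnaja1 (-0.28, 2.57e-07) and Stip1 (-0.17, 2.98e-05). The 1 higher was Cct4 (0.10, edgeR adjusted p = 0.0232); no gene of that list was called higher with scaling by total counts or without control replicate 1 or 4 or conditioned replicate 2 or 3, 2 were by limma-voom, and 3 were without conditioned replicate 4. Mitochondrial chaperones had 3 lower and 2 higher of 12 tested (median -0.01), against 14.8% and 15.7%, with Clpb (0.24, edgeR adjusted p = 5.56e-06) and Hspa9 higher and Hspd1 (-0.08, 0.0214), Trap1 (-0.08, 0.0173) and the protease gene Lonp1 (-0.08, 0.0256) lower. Lonp1 lost its call without control replicate 1 or 4 or conditioned replicate 1, 3 or 4 (adjusted p from 0.0573 to 0.113). Trap1 lost its call without control replicate 1 or conditioned replicate 1 or 2 (0.0609 to 0.0774), and the list had 0 called lower without conditioned replicate 1 and 1 without control replicate 1 or 4 or conditioned replicate 3 or 4. Genes named in these lists outside the naming rule were picked with their values known.

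**Figure D4:**
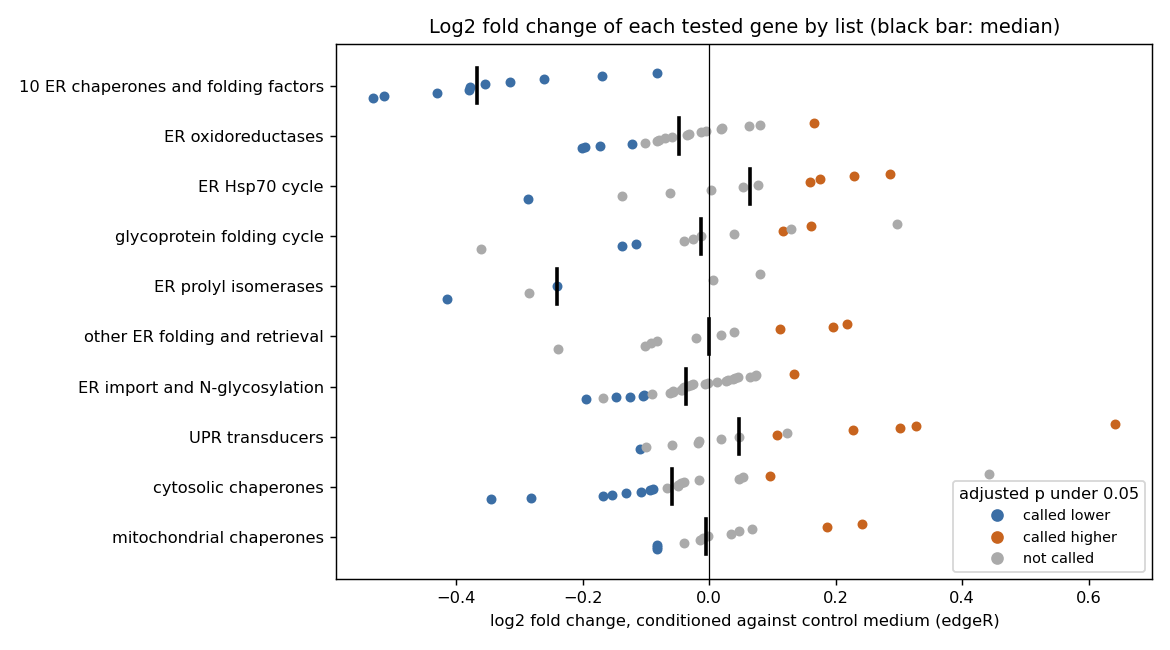
Log2 fold change (horizontal axis) of each tested gene of 10 lists, with genes called lower in blue, called higher in orange and not called in grey, and the list's median as a black bar. All 10 members lie below 0 with a median of -0.37, and the medians of the other lists lie between -0.24 and 0.07.

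Of 13 tested transducers of the unfolded protein response, 5 were called higher and 1 (Atf6b) lower, and the median log2 fold change was 0.05, where 15.7% of all tested genes were called higher and 14.8% lower. Atf6, the membrane-bound factor that acts on ERSE after cleavage, had 135, 138, 137 and 138 normalised CPM in control and 173, 163, 174 and 166 in conditioned medium, a rise of 0.30 (SE 0.03, edgeR adjusted p = 3.88e-09). Ddit3 (CHOP), a death-related factor below Atf4, rose by 0.64 (SE 0.06, 3.45e-09) and Ppp1r15a (GADD34), a phosphatase subunit that restores translation, by 0.33 (SE 0.06, 1.92e-04). Exons of Ddit3 share 10.1% of their bases with Mars and a second Ddit3 ID. Atf4 rose by 0.23 (edgeR adjusted p = 3.04e-07) and the protease gene Mbtps1, whose product cleaves ATF6, by 0.11 (0.00327). Xbp1 had 198 against 205 normalised CPM (log2 fold change 0.05, 0.332), and gene counts do not show the splicing that activates it. The Ern1 and Eif2ak3 genes of the other sensors had 0.12 (0.187) and -0.02 (0.804), and Nfya, Nfyb and Nfyc, the subunits of NF-Y, had -0.06, -0.10 and -0.02, none past the threshold. Atf6b, a relative of Atf6, had a change of -0.11 (edgeR adjusted p = 0.0396), and no gene of the list was called lower by DESeq2 or without control replicate 1 or conditioned replicate 1 or 2, whereas 2 were with scaling by total counts. Genes of this list outside the naming rule, Atf4, Mbtps1, Atf6b, Xbp1 and the rest, were picked with their values known.

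**Figure D5:**
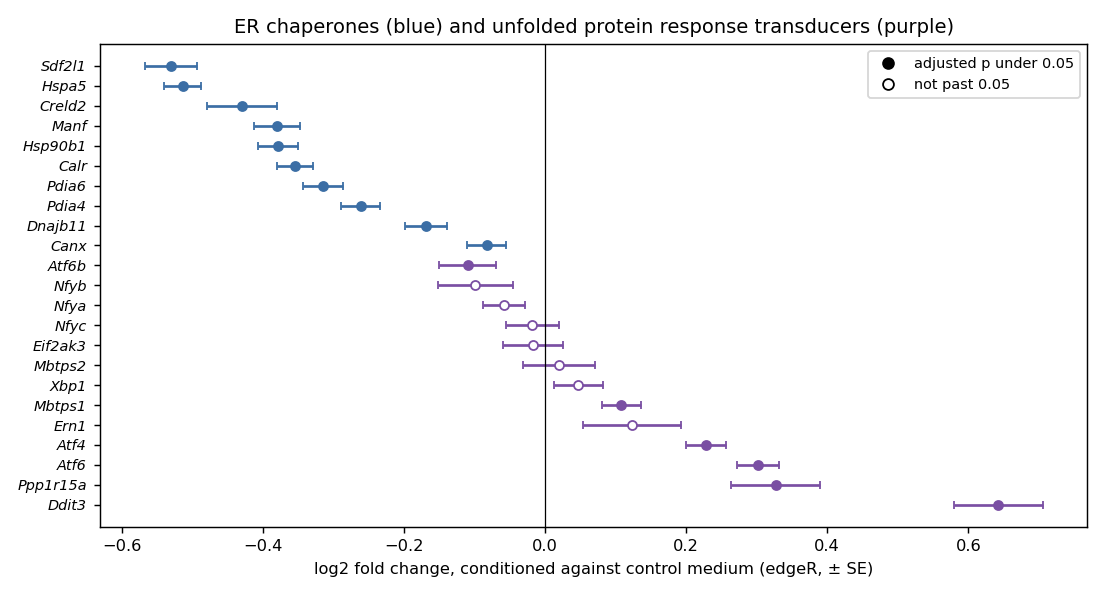
Log2 fold change with its SE (horizontal axis) of the 10 members (blue) and the 13 genes of unfolded protein response transducers (purple), with filled points past an adjusted p of 0.05. Members run from -0.53 to -0.08. The transducers run from -0.11 (Atf6b) to 0.64 (Ddit3) with a median of 0.05, and 5 were called higher, 1 lower and 7 not called.

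Genes with an ERSE were then looked at whether or not they are members. Of 37 genes with ERSE in a window, 15 were tested, of which 6 are members. Among the 9 that are not, 2 were called lower and 1 higher, with a median log2 fold change of -0.10. Among 8532 tested genes whose windows hold no ERSE, 14.8% were called lower and 15.5% higher, with a median of -0.01. Dnajc3, which has 1 ERSE and is no member, had 189.7 against 182 normalised CPM (log2 fold change -0.06, edgeR adjusted p = 0.116, and 0.0258 with scaling by total counts). Members with ERSE had log2 fold changes of -0.51 (Hspa5), -0.43 (Creld2), -0.38 (Hsp90b1), -0.35 (Calr), -0.31 (Pdia6) and -0.08 (Canx). Those whose windows held no ERSE had -0.53 (Sdf2l1), -0.26 (Pdia4) and -0.17 (Dnajb11, with ERSE-II). A link between the element and the size of the fall was not tested.

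The genes whose profile over the 8 cultures lay nearest to that of Hspa5 were sought among 6946 genes that are no members and have a mean of at least 20 CPM. The measure was the root mean square difference of log2 CPM, each gene taken relative to its control mean. The nearest was Pfkl, a liver-type phosphofructokinase of glycolysis, at 0.0507, with 199, 211, 195 and 189.6 normalised CPM in control and 147, 144, 146 and 141 in conditioned medium. It was followed by Cip2a (an inhibitor of the phosphatase PP2A) and H2-Ob (a chain of the antigen presentation protein H2-O) at 0.0739 and 0.0744, the B-cell receptor inhibitor Cd22 at 0.0754 and Slc35b1, a solute carrier of the ER membrane, at 0.0771. Their log2 fold changes lay between -0.51 (Cip2a) and -0.42 (Slc35b1).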

How the data were processed

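RNA was measured by sequencing in 8 cultures of PER-M60, 4 per medium. Per the labels' protocols, RNA came from a column kit and libraries from the SureSelect HS2 kit. The authors deposited raw counts, whole numbers for each Ensembl gene ID. The submitters' processing notes name STAR 2.7.5a, featureCounts 2.0.1 and mm10; the annotation release, the use of strand and the use of molecular barcodes are not given in the sources used here. Sample titles gave the groups and replicate numbers, and all 8 columns were matched to samples by their headers (0 left over).

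The members, lists and tests were chosen with earlier results of these data known. Symbols, positions and exon lengths came from GENCODE M21 (21817 of 21859 IDs matched, and 174 of 175 list entries by a symbol with 1 ID; Ddit3 has 2 IDs, of which the longer was used). The test was that of edgeR 4.0.16 (R 4.3.3): filterByExpr, TMM, glmQLFit (robust) and glmQLFTest with medium as the term, adjusted by Benjamini-Hochberg at 0.05. Normalised CPM are TMM-scaled, and SE is the absolute change divided by the root of F. On simulated counts (10669 genes run for this comparison) the share of changed genes called rose with the fold. It was 34% for a 1.1-fold change, 70% for 1.2-fold, 90% for 1.5-fold and 98% for 2-fold. False calls made up 9.88% of all calls on the simulated counts. That percentage depends on how many genes are set to change, and the share of false calls in the measured data was not tested. Sampling counts limit the precision of each value, and reads are not independent molecules.

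Genes named were all members, up to 3 called genes with the largest change in each list (mean of at least 5 CPM), the genes of the ratio pairs and the 5 genes nearest to Hspa5. Promoter windows came from RefSeq (GRCm38.p6). A planned look at protein C-terminal signals was left out, since protein sequences were not used here. The alternatives tried were 4 scalings (total counts, upper quartile, DESeq2 size factors, TMM without the members), DESeq2 1.42.0 and limma-voom (limma 3.58.1), no robust estimation, other filters (none, or a mean of at least 50 counts), an adjusted p under 0.01, a test against 1.2-fold, the replicate block, 0.5 counts added in ratios, and leaving out each culture. Python 3.11.15 with pandas 2.3.3 and matplotlib 3.10.9 made annotations and figures.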

Additional observations from a re-analysis of the deposited data

Results flagged for a closer look

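For 136 groups of 4 cultures (named genes, the members' sum and ratios), the gap of the highest or lowest culture to its neighbour was divided by the group's range. In 8 groups that ratio was above Dixon's 95% critical value, where chance gives about 6.8. Among the members, Dnajb11 was high in control replicate 3, at 153 normalised CPM against 145 to 146 in the other control cultures (ratio 0.920), and Sdf2l1 was low in control replicate 4, at 103 against 111 to 112 (0.899). The log2 ratio of Hspa5 to Canx was high in control replicate 1, at -0.57 against -0.61 (0.854), and that of Hspa5 to Creld2 was high in control replicate 4, at 4.35 against 4.20 to 4.22 (0.840). Among other genes, Cip2a was low in control replicate 2 (146 against 152 CPM), Ostc high in control replicate 2 (78.8 against 71.1 or less), Stip1 high in control replicate 3 (482 against 447 to 451) and Uggt1 low in conditioned replicate 4 (243 against 251 to 252). The calls on Dnajb11 and Sdf2l1 were kept without each of the 8 cultures in turn.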

How the results depend on the processing

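All 10 members were called lower in 16 of the 20 alternatives, counting 6 of the 8 that each left out a culture, and no called direction reversed; Cdnf, which was not called, went from -0.09 to 0.04 without conditioned replicate 1. The test against a 1.2-fold change called 6 members (Hspa5, Hsp90b1, Calr, Sdf2l1, Manf and Creld2), 227 genes of the whole table, and 0 lower and 0 higher among the other ER lists (0 and 0 also at an unadjusted p under 0.05; DESeq2 without that minimum called 13 and 11), since it asks for a larger change. An adjusted p under 0.01 called 9 members and 2147 genes. With the replicate block, 10 members and 3446 genes were called; the correlations of same-numbered cultures ran from -0.0607 to 0.170 and 1 of the 4 numbers matched best with itself, so the numbers were not taken to pair the cultures. Under the swaps within numbers, the smallest p for a ratio is 0.125. Leaving out each culture gave from 9 to 10 members, from 2635 to 3578 genes, from 0 to 8 of the 11 related pairs (0 where 6 pairs were at the smallest exact p possible, which adjusts to 0.0524), from 6 to 7 of the 9 pairs with Hspa5 and a summed difference from -1019.97 to -949 CPM. Hspa5 ranged from -0.54 to -0.50 over the alternatives and Canx from -0.10 to -0.06. Of 47 named genes, 15 kept their side of the threshold throughout and 23 changed in the 1.2-fold test only. At these depths, changes of 1.1-fold were often missed on simulated counts.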

Other observations

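Among all genes whose promoter window holds TGATGCAA on either strand (the core of a C/EBP-ATF element), 69 were tested, and 25 of them (36.2%) were called higher and 7 (10.1%) lower, against 15.3% and 14.9% of tested genes whose windows lack it. None of the members' windows holds it. Of 87 tested genes with TGACGTGG in a window, 17 (19.5%) were called higher and 16 (18.4%) lower. Among tested genes whose windows lack TGACGTGG, 15.5% were called higher and 14.8% lower. These counts were set beside each other without a test.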
